A study of Ovis aries with 3 samples.

Results

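The cecum and the duodenum of small-tailed Han sheep were compared by RNA-seq of the intestinal mucosal epithelium. For each region, tissue from the middle section of 3 ewes aged 11 months was pooled into 1 library, so the comparison holds 1 library against 1 and has no replicates. Values are RPKM, the reads of a transcript scaled by its exon length and by the read total of its library. The exons of each annotated transcript were summed, and transcripts with RPKM of at least 10 in the duodenum or the cecum were kept. These were 27645 of the 83089 transcripts in the tables, in 8948 of 28601 sets of transcripts that share exons. Of them, 24399 reached RPKM 10 in the duodenum and 25234 did so in the cecum, with 21988 shared by the libraries. The tables carry no gene names, and 4297 of the kept transcripts could be paired with a symbol. With each gene represented by its transcript with the most reads, or by the transcript that the study names, 3385 genes had a symbol and RPKM of at least 10.

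The duodenum receives bile and pancreatic juice and is the start of the small intestine, where enterocytes take up fatty acids, cholesterol, sugars, peptides, vitamins and minerals, pack fat into chylomicrons and oxidise foreign compounds. The cecum is a fermentation chamber at the start of the large intestine. Its epithelium lives beside a dense microbial community, takes up short-chain fatty acids made by those microbes, exchanges ions and water, and is covered by mucus from goblet cells. Position along the gut is marked by HOX genes, homeobox transcription factors that are active in order along the body axis.

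The read totals in the headers were 50.8 M reads for the duodenum and 46.3 M reads for the cecum. Intervals given below are exact 95% Clopper-Pearson intervals of the log2 ratio from rounded reads and cover counting error only. The reads over distinct exons came to 1.35 times the header total in the duodenum and 1.39 times in the cecum, so the intervals may be too narrow. The cause of the excess was not tested. Without replicates, no p-value is given, and a gene is said to be higher in a region where its RPKM was at least 2-fold that of the other region in these libraries. The values just beside that limit were close to each other. PARM1 had 10.4 RPKM in the duodenum and 20.8 in the cecum, just past it, and GNG11 had 48.1 and 95.8, just short of it. At the limit on level, the lowest transcript kept had 8.06 RPKM in the cecum and just reached 10 in the duodenum, and the highest transcript left out had 8.74 and 9.9986.

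Most of the transcripts kept differed little between the regions. The RPKM values of 20432 of 27645 transcripts, or 73.9%, lay within 1.5-fold of each other, and the median log2 ratio of cecum over duodenum was 0.02, against 0.06 over the 57393 transcripts with RPKM of at least 1. At least 2-fold higher in the cecum were 2392 transcripts (8.65%), and the duodenum was higher for 1639 (5.93%). Over all transcripts with RPKM of at least 1 these shares were 11.6% and 6.32%. Counted as genes with a symbol, 296 of 3385 (8.74%) were higher in the cecum, against 206 (6.09%) for the duodenum, and with RPKM of at least 1 the shares were 11.2% and 6.52% of 5783 genes. A transcript enters through the region where it is higher, so these shares describe the libraries under this limit only. The shares of 8.74% and 6.09% are those to set beside the count of each gene list below.

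The balance between the regions turned with the size of the difference. At 2-fold more genes were higher in the cecum, but at 4-fold there were 92 genes for the cecum and 106 for the duodenum. At 16-fold the numbers were 20 and 54, and at 64-fold they were 7 and 41. The transcripts showed the same order, with 609 and 722 at 4-fold and 72 and 251 at 64-fold. Among genes with a symbol, 7 had 0 reads in the cecum and 2 had 0 reads in the duodenum. The cecum thus had more genes with moderate excess, and the duodenum had more genes that were nearly absent from the other library.

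**Figure D1:**
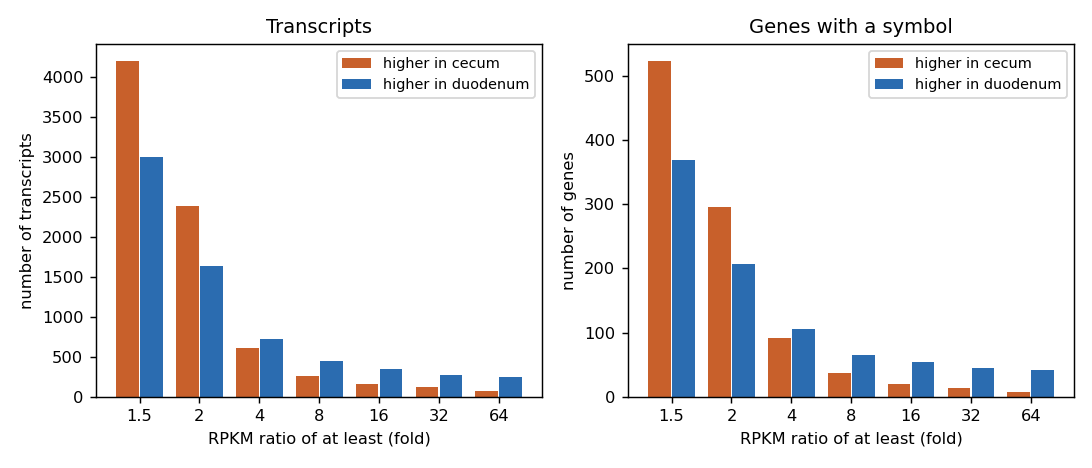
Number of transcripts (left) and of genes with a symbol (right) whose RPKM ratio between the pooled cecum and duodenum libraries reached the fold on the horizontal axis, by the region in which they were higher. The cecum bars are taller at 2-fold (296 against 206 genes) and the duodenum bars are taller from 4-fold on (92 against 106 genes).

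The share past 2-fold did not rise steadily with level among genes with a symbol. Of the 121 genes with RPKM of at least 500 in either region, 22 (18.2%) were higher in the cecum, against 10 (8.26%) for the duodenum. Of the 1145 genes with RPKM from 10 to 20, 95 (8.3%) and 46 (4.02%) were. Between these, the shares were 5.69% and 6.71% of 492 genes from 50 to 100, and 12.3% and 12.1% of 413 genes from 100 to 500. By the prefix of the accession, of 1314 predicted noncoding transcripts, 90 (6.85%) were higher in the cecum, against 75 (5.71%) for the duodenum. Of 25861 predicted coding transcripts, 2228 (8.62%) and 1533 (5.93%) were, and of 469 curated coding transcripts 74 (15.8%) and 31 (6.61%). These differences were not tested.

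**Figure D2:**
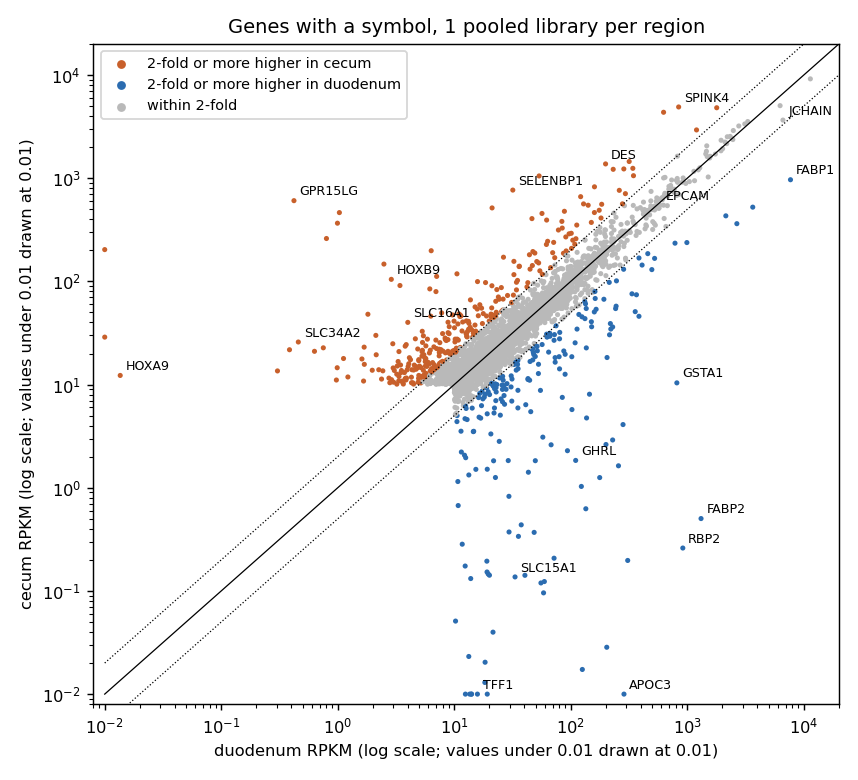
RPKM of the 3385 genes with a symbol in the pooled duodenum library (horizontal, log scale) and the pooled cecum library (vertical, log scale), with the line of equal values and dotted lines at 2-fold. The points higher in the duodenum reach far below the line (FABP2, 1313 against 0.503), and most of those higher in the cecum stay closer to it.

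The cell types in both libraries were read from marker genes. The epithelial adhesion gene EPCAM had 582 RPKM in the duodenum and 550 in the cecum, and the keratin gene KRT20, a marker of differentiated intestinal epithelium, had 420 and 448. Of the 7 epithelial genes, 5 were within 2-fold, 1 was higher in the cecum (CDX1) and 1 in the duodenum (CLDN4, a tight junction claudin, with 24.3 and 2.82 RPKM). KRT8, a keratin of simple epithelia, had 823 and 1635 RPKM, and the summed level was 2378 and 3323. Genes of the tissue layers below the epithelium were not equal. All 8 smooth muscle genes with a symbol were at least 2-fold higher in the cecum, with a median log2 ratio of 2.04 and a summed level of 1630 RPKM in the duodenum and 7051 in the cecum. DES, the intermediate filament of muscle, had 199 and 1376 RPKM, and CNN1, the actin-binding calponin of smooth muscle, had 122 and 662. None of the 8 was at 0 in either library.

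The other genes of the wall moved the same way. Of 7 genes of fibroblasts and matrix, 6 were at least 2-fold higher in the cecum, and their summed level was 610 RPKM in the duodenum and 1986 in the cecum. COL3A1, a fibrillar collagen, had 129 and 564 RPKM. All 3 endothelial genes at RPKM 10 were higher in the cecum, among them PECAM1, the adhesion molecule of endothelial cells, with 21.0 and 55.3 RPKM, and the summed endothelial level was 55.5 and 130 RPKM. With median-ratio scaling KDR, a receptor for vascular growth factor, fell short (0.95 against 1.02), as did PECAM1 on exons that no other transcript lists (0.93 against 1.40). Both genes of nerve and glia at that level, S100B and UCHL1, were higher too, and that list summed to 18.0 and 42.9 RPKM. The part of these tissue layers in the results below was not tested. In pooled tissue, more cells of a type and more RNA per cell cannot be told apart.

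The listed genes of lymphocytes and antibody-secreting cells that could be compared did not pass 2-fold, as was true of most genes. Of 13 listed genes of plasma cells and B cells 7 had a symbol, and of 16 of T cells and NK cells 6 did. Outside these lists, CCR9 and GNLY, given in the last section, passed 2-fold on opposite sides. None of 5 genes of plasma cells and B cells and none of 5 genes of T cells and NK cells at RPKM 10 passed it. JCHAIN, the joining chain of secreted antibodies, had 6626 RPKM in the duodenum and 3659 in the cecum, a log2 ratio of -0.86 (95% interval -0.86 to -0.85). CD3E, a subunit of the T cell receptor complex, had 111 and 68.4 RPKM. The median log2 ratio was -0.38 over the plasma cell and B cell list and -0.53 over the T cell and NK cell list, against 0.05 over all genes with a symbol and RPKM of at least 1. The exocrine pancreas genes with a symbol, CPA1, PNLIP and CEL, summed to 0.468 RPKM in the duodenum and were at 0 in the cecum. No gene of the erythrocyte list had a symbol in the tables.

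**Figure D3:**
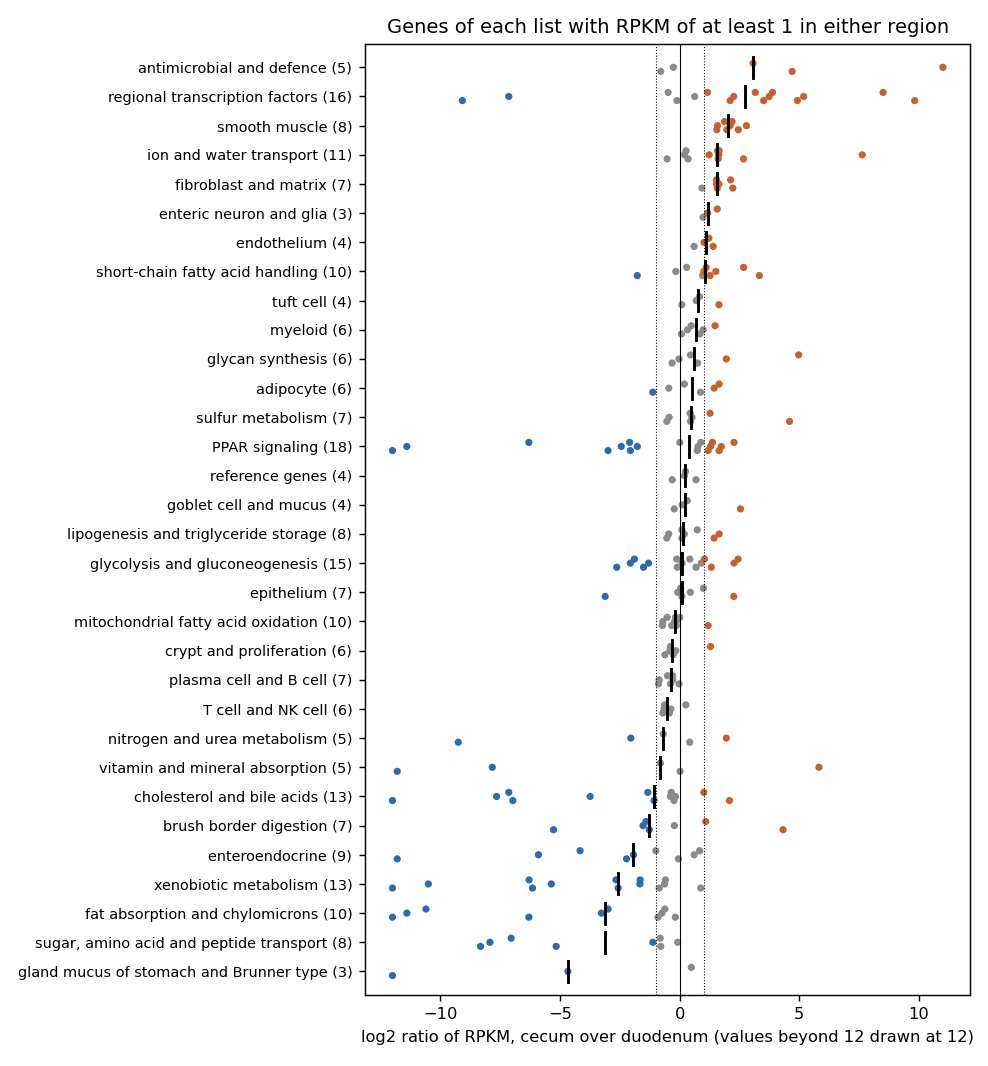
Log2 ratio of RPKM, cecum over duodenum, for each gene of the lists with at least 3 genes at RPKM 1 or more (number in brackets, points staggered vertically, bars at the median, dotted lines at 2-fold). The smooth muscle genes all lie right of 2-fold with a median of 2.04, and of the 10 fat absorption genes 6 lie left of 2-fold and 4 within it, with a median of -3.13.

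Of 8 fat absorption and chylomicron genes at RPKM 10, 5 were at least 2-fold higher in the duodenum and none in the cecum, and the median log2 ratio of the 10 genes at RPKM 1 was -3.13. FABP2, the intestinal fatty acid binding protein, had 1313 RPKM in the duodenum and 0.503 in the cecum, from 100130 and 35 reads. FABP1, the liver-type binding protein, kept a high level in both, with 7692 and 967 RPKM. The 2 binding proteins therefore differed in their ratios, 2610-fold for FABP2 and 7.96-fold for FABP1.

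Of 4 apolipoprotein genes with a symbol, 3 were far higher in the duodenum. APOA4, carried on chylomicrons, had 308 RPKM in the duodenum and 0.197 in the cecum. APOA1, the main protein of high-density lipoprotein, had 229 and 2.90 RPKM. APOC3, an inhibitor of lipoprotein lipase, had 8265 reads in the duodenum and 0 in the cecum, at least 2510-fold higher when 3 reads are put in the cecum library. APOC2, an activator of lipoprotein lipase, was low in both, with 1.01 and 0.603 RPKM. Other genes of the list stayed within 2-fold. DGAT1, which makes triglyceride, had 102 and 54.4 RPKM, and PLIN2, a coat protein of lipid droplets, had 23.4 and 20.6.

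Of 9 genes of the cholesterol and bile acid list at RPKM 10, 5 were higher in the duodenum and 1 in the cecum. NPC1L1, the cholesterol importer of the brush border, had 10.3 RPKM in the duodenum and 0.0510 in the cecum. ABCG5 and ABCG8 form the pump that returns sterols to the lumen. ABCG5 had 1539 reads in the duodenum and 0 in the cecum, at least 467-fold higher, and ABCG8 had 19.1 and 0.153 RPKM. SOAT2, which esterifies cholesterol, had 20.1 and 0.142 RPKM. ABCA1, a basolateral exporter of cholesterol, lay on the other side with 4.26 and 8.60 RPKM, below RPKM 10 (log2 ratio 1.01, and 0.94 with median-ratio scaling). The synthesis enzyme SQLE, which oxidises squalene, stayed within 2-fold, with 35.2 and 26.9 RPKM. The gene higher in the cecum was SLC51A, a subunit of the basolateral bile acid exporter, with 11.2 and 47.4 RPKM, while its partner SLC51B had 9.22 and 4.39 and lay on the duodenal side (log2 ratio -1.07, and -0.87 on exons that no other transcript lists).

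Nutrient transporters for sugars, peptides and amino acids were higher in the duodenum or similar. Of 5 genes at RPKM 10, 3 were higher in the duodenum, none in the cecum. SLC15A1, the peptide transporter PEPT1, had 33.3 RPKM in the duodenum and 0.137 in the cecum. SLC7A9, a subunit of the transporter for cystine and dibasic amino acids, had 48.5 and 0.369 RPKM, and SLC2A5, the fructose transporter, had 29.5 and 0.826. SLC5A1, the sodium-glucose cotransporter, did not pass 2-fold, with 71.4 and 41.3 RPKM. It had the highest level of the list in the cecum.

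Of 4 vitamin and mineral genes at RPKM 10, 1 was higher in each region and 2 were within 2-fold. Over all genes with a symbol the shares were 8.74% in the cecum and 6.09% in the duodenum. RBP2, the retinol binding protein of enterocytes, had 916 RPKM in the duodenum and 0.261 in the cecum (log2 ratio -11.8, 95% interval -13.0 to -10.8). TRPV6, the apical calcium channel, had 9.33 and 0.0411 RPKM and stayed below RPKM 10. SLC34A2, a sodium-phosphate cotransporter, lay on the other side with 0.459 RPKM in the duodenum and 25.9 in the cecum. FTH1, the heavy chain of ferritin, had 772 and 783 RPKM, and TCN2, a carrier of vitamin B12, had 27.3 and 15.6.

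Enzymes and pumps for foreign compounds formed another duodenal group. Of 12 genes at RPKM 10, 8 were at least 2-fold higher in the duodenum and none in the cecum, with a median log2 ratio of -2.57 over 13 genes. GSTA1, a glutathione transferase, had 814 RPKM in the duodenum and 10.4 in the cecum. CYP1A1, a cytochrome P450 induced by aromatic compounds, had 93.7 and 2.29 RPKM. ABCC2, an apical efflux pump for conjugates, had 12.4 and 0.174 RPKM. The glucuronosyltransferase genes of the UGT1A cluster share exons with each other and cannot be separated, and the transcript of UGT1A1 had 89.4 and 59.2 RPKM. CYP3A24 rested on 1 read in the cecum against 1550 in the duodenum, a log2 ratio of -10.5 (95% interval -15.8 to -7.98).

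Of 7 genes of enteroendocrine cells at RPKM 10, 3 were higher in the duodenum and 4 were within 2-fold. The duodenum was higher for 6.09% of all genes with a symbol. GHRL, the gene of ghrelin, had 110 RPKM in the duodenum and 1.84 in the cecum, and MLN, the gene of motilin, had 102 and 5.73. CHGA, a granule protein of these cells in general, had 497 and 130 RPKM. GCG, from which glucagon-like peptides are made, had 21.9 and 33.4 RPKM and stayed within 2-fold, as did SST, the somatostatin gene, with 118 and 59.0 (log2 ratio -0.997, and -1.07 with median-ratio scaling). INSL5, a hormone gene of the large intestine, had 0 reads in the duodenum and 7 in the cecum. The ghrelin and motilin genes thus differed far more than the general granule gene.

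On the cecal side, transporters for ions and short-chain fatty acids were higher. Of 9 genes of ion and water transport at RPKM 10, 5 were at least 2-fold higher in the cecum and none in the duodenum. SLC26A3, the apical chloride-bicarbonate exchanger, had 7.80 RPKM in the duodenum and 49.5 in the cecum. ATP1B1, the beta subunit of the sodium pump, had 111 and 259 RPKM. GUCA2A, the gene of guanylin, a peptide that acts on fluid secretion, had 345 and 1058 RPKM, and its relative GUCA2B had 99.2 and 68.9.

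For short-chain fatty acids, 5 of 7 genes at RPKM 10 favoured the cecum and 1 the duodenum. SLC16A1, the proton-coupled monocarboxylate transporter MCT1, had 3.99 RPKM in the duodenum and 40.1 in the cecum (log2 ratio 3.33, 95% interval 3.24 to 3.42). BSG, the chaperone that brings it to the membrane, had 294 and 709 RPKM. ACSS2, which activates acetate, had 86.6 and 187 RPKM. OXCT1, which uses ketone bodies, had 14.4 and 29.1 RPKM, and its log2 ratio of 1.01 was 0.94 with median-ratio scaling. The sodium-coupled transporter SLC5A8 did not follow and was low in both regions, with 0.716 and 0.795 RPKM from 82 and 83 reads. The study reports both SLC16A1 and SLC5A8 as higher in the large intestine. It used FPKM of transcripts and also the colon and Texel sheep, so its statement and the value here are not like for like.

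Position genes gave some of the sharpest contrasts. Of 12 regional transcription factors at RPKM 10, 8 favoured the cecum by at least 2-fold and 2 the duodenum. HOXB9 had 2.88 RPKM in the duodenum and 105 in the cecum, HOXC6 had 0.752 and 22.7, and HOXA9 had 4 reads (0.0136 RPKM) and 3292 reads (12.3 RPKM). These 3 HOX genes were low in the duodenum. CDX1, a homeobox factor of the intestinal epithelium, had 5.34 and 25.6 RPKM, and KLF4, a factor of differentiated epithelial cells, had 21.1 and 90.7. The factors higher in the duodenum were ONECUT2, a homeobox factor, with 21.5 and 0.0399 RPKM and CREB3L3, a membrane-bound factor of lipid metabolism, with 177 and 1.25. HNF4A, a general factor of the intestinal epithelium, had 97.4 and 69.8.

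Of 4 goblet cell genes, 1 was higher in the cecum and 3 were within 2-fold, as were most genes. TFF3, the trefoil peptide of goblet cells, had 3117 RPKM in the duodenum and 3357 in the cecum, and AGR2, a folding enzyme for mucins, had 1460 and 1823. SPINK4, a protease inhibitor made by goblet cells, was the gene that passed, with 844 and 4905 RPKM. Of the genes linked to gastric and Brunner type mucus, TFF1 had 400 reads in the duodenum and 0 in the cecum, at least 122-fold higher, whereas TFF2 had 1470 and 2060 RPKM. OLFM4, found in crypts, had 1201 and 2938 RPKM, but the proliferation genes TOP2A, PCNA, CDK1 and BIRC5 stayed within 2-fold, for example PCNA with 52.4 and 43.5 RPKM.

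Smaller lists gave few members. Both brush border enzymes at RPKM 10 were higher in the duodenum, with MEP1B, a meprin subunit, at 49.6 and 18.7 RPKM and XPNPEP2, an aminopeptidase, at 10.55 and 4.38. Of the 7 at RPKM 1, 4 were higher in the duodenum and 2 in the cecum. Those 2 were CPO, with 0.170 and 3.38 RPKM, and NAALADL1, with 3.39 and 7.22. None of 4 myeloid genes, among them CD14, a receptor for bacterial lipopolysaccharide, with 12.6 and 24.9 RPKM, and none of 3 tuft cell genes passed 2-fold. Most genes with a symbol did not pass it either. Of 2 adipocyte genes FABP4 was higher in the cecum and CFD, the complement factor D gene, in the duodenum, with 284 and 131 RPKM. Of 5 glycan synthesis genes 2 passed, both in the cecum, where 8.74% of all genes with a symbol did. Of these 2, ST3GAL4, a sialyltransferase, had 2.90 and 11.2 RPKM (log2 ratio 1.95, and 0.99 on exons that no other transcript lists).

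Defence genes with low levels lay on both sides. TLR5, the receptor for flagellin, had 2.97 RPKM in the duodenum and 24.9 in the cecum. Below RPKM 10, DUOX2, an oxidase that makes hydrogen peroxide at the cell surface, had 0.322 and 8.36 RPKM. NOS2, the inducible nitric oxide synthase, had 0 reads in the duodenum and 488 in the cecum, at least 178-fold higher. Low genes on the duodenal side were PLA2G2D, with 2.04 and 1.18 RPKM, PGLYRP1, with 9 and 5 reads, and PGLYRP2, with 13 and 6 reads. LTF, the gene of lactoferrin, had 46.0 and 38.3 RPKM. At RPKM 10 the list held 2 genes, of which 1 was higher in the cecum.

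Of the 51 genes that the study names, 30 could be paired with a transcript of the tables and 23 had RPKM of at least 10. Among these 23, 10 were at least 2-fold higher in the cecum, 6 in the duodenum and 7 within 2-fold. The study chose some of these genes from differential transcripts shared between these libraries and those of Texel sheep. Others, such as ACACA and SCD, it examined as lipogenesis genes of fat cells. It also measured several by qRT-PCR. The directions given here come from libraries that the study itself used, so they are not independent evidence. In the pathway of PPAR, nuclear receptors that sense fatty acids, the members moved in both directions. Of 15 genes of that list at RPKM 10, 4 favoured the cecum and 7 the duodenum.

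The PPAR genes higher in the duodenum included the absorptive ones already given, ACAA1, a peroxisomal thiolase (245 RPKM in the duodenum and 57.5 in the cecum), and DBI, the acyl-CoA binding protein (992 and 238). Of those higher in the cecum, PCK1, the entry enzyme of gluconeogenesis, had 13.8 and 66.2 RPKM. CPT1A, which admits long-chain fatty acids to mitochondria, had 32.2 and 73.7 RPKM. FABP3 and FABP4, binding proteins of muscle and of fat cells and vessels, had 71.3 and 239 and 5.70 and 17.8 RPKM. PPARG itself had 15.96 and 29.5 RPKM, short of 2-fold (log2 ratio 0.89, 95% interval 0.78 to 0.99).

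Of 10 genes of mitochondrial fatty acid oxidation at RPKM 10, 1 passed 2-fold, CPT1A, close to the share over all genes with a symbol (8.74% in the cecum and 6.09% in the duodenum). The others had log2 ratios between -0.72 for ETFDH and 0.01 for CPT2. HADHA, the alpha subunit of the trifunctional protein, had 153 RPKM in the duodenum and 136 in the cecum. The lipogenic enzymes ACACA, with 9.57 and 10.2 RPKM, and SCD, with 32.8 and 54.6, also stayed within 2-fold, as did CEPT1, a phospholipid synthesis enzyme, with 41.7 and 35.8. LPL, the lipoprotein lipase gene, had 3.41 and 8.33 RPKM, and PLIN1, a droplet coat protein of fat cells, had 0.916 and 2.49. GPAM, LPIN1, CIDEC and CIDEA stayed below RPKM 10 and within 2-fold, for example GPAM with 6.46 and 4.45.

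Sugar metabolism was mixed by step. Of 14 glycolysis and gluconeogenesis genes at RPKM 10, 4 were higher in each region. LDHB, a lactate dehydrogenase subunit, had 88.2 RPKM in the duodenum and 478 in the cecum. PFKM, the muscle-type phosphofructokinase, had 6.52 and 16.3 RPKM, and PKM, a pyruvate kinase, had 101 and 209. The call of PKM ended with median-ratio scaling (0.97) and with the median exon (0.95, against 1.04). In the duodenum FBP1, a gluconeogenic phosphatase, was higher with 151 and 36.3 RPKM, as was the hexokinase-like HKDC1 with 20.6 and 3.32. GAPDH had 626 and 1006 RPKM and did not pass.

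In nitrogen and urea metabolism neighbouring steps lay on opposite sides. OTC, which makes citrulline, had 58.4 RPKM in the duodenum and 0.0958 in the cecum. SLC25A15, which brings ornithine into mitochondria, had 52.8 and 12.8 RPKM. ASS1, the next enzyme in line, which uses citrulline, had 36.02 and 139. In sulfur metabolism 2 of 7 genes passed, both in the cecum, where 8.74% of all genes with a symbol did. SELENBP1, a methanethiol oxidase, had 31.8 and 767 RPKM, and SQOR, which oxidises sulfide in mitochondria, had 104 and 251 (log2 ratio 1.27, and 0.80 on exons that no other transcript lists).

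Among the remaining genes of the study, the sialyltransferase ST6GALNAC6 had 6.34 RPKM in the duodenum and 198 in the cecum, in a set of 13 transcripts that share exons. LOC101103222, which has no descriptive name here, had 626 and 4357 RPKM. LOC654331 and LOC101107420 were higher in the duodenum, with 3648 and 524 RPKM and 2665 and 363 RPKM. The reference gene ACTB had 821 and 941 RPKM, and B2M, a subunit of class I histocompatibility molecules, had 6263 and 5049. None of the 4 reference genes passed 2-fold, as was true of most genes.

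**Figure D4:**
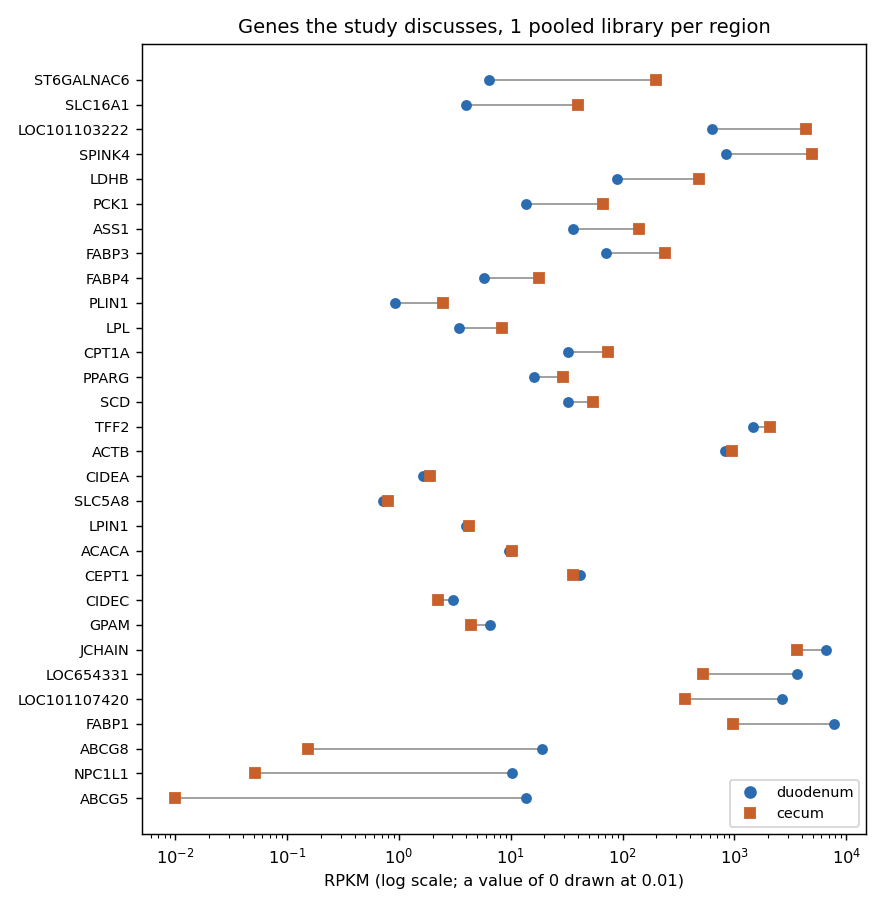
RPKM (log scale) in the pooled duodenum library (circles) and cecum library (squares) for the 30 genes of the study that could be paired with a transcript, ordered by log2 ratio. ABCG5, at 0 in the cecum, lies at the bottom, and ST6GALNAC6, with 6.34 and 198 RPKM, lies at the top.

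The transcripts with the largest differences in log2(RPKM + 1) were taken among those with at least 2 usable exons that all pointed the same way, 10 in each direction and 1 for each set. In the cecum GPR15LG, the ligand of a homing receptor of lymphocytes, came first, with 0.421 RPKM in the duodenum and 606 in the cecum (log2 ratio 10.5, 95% interval 9.94 to 11.1). PI3, the elastase inhibitor elafin, had 1.03 and 464 RPKM. MSMB, a secreted protein best known from seminal fluid, had 0.800 and 260. LOC101110777 had 0 reads in the duodenum and 5253 in the cecum, at least 1920-fold higher, and LOC101108654 had 0.994 and 367 RPKM.

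The other 5 of the cecal list had no symbol. XM_012143296.1 was the most abundant, with 39.1 RPKM in the duodenum and 3303 in the cecum. XR_001043348.1, a noncoding transcript by its prefix, had 5.56 and 1829 RPKM, and XM_012184180.1 had 0.0954 and 238. XM_012186664.1 had 0.330 and 178 RPKM, and XM_012107680.1 had 0.187 and 65.8. In the colon library, 9 of the 10 cecal transcripts had between 63.7 and 3789 RPKM. XM_012107680.1 differed, with 3.61 RPKM in the colon.

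In the duodenum the list held RBP2 and APOC3, given above, and transcripts that share exons with FABP2 and APOA4. CCL25, a chemokine that draws lymphocytes to the small intestine, had 836 RPKM in the duodenum and 2.97 in the cecum. The others had no symbol. XM_012148943.1 had 2374 and 1.51 RPKM, XM_012170952.1 had 1550 and 1.11, and XM_012133220.1 had 634 and 1.29. XM_012172967.1 and XM_012185956.1 had 3077 and 10054 reads in the duodenum and 0 in the cecum. The 2 chemoattractants for lymphocytes, CCL25 and GPR15LG, were therefore on opposite sides.

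Agreement across exons was examined because each exon gives its own ratio within the same pair of libraries. Of 3950 transcripts past 2-fold with at least 2 exons at exon RPKM of at least 1, 3588 (90.8%) had all such exons pointing the same way as the transcript. Exon by exon, 99.1% of 51155 exons did. Among the 23117 transcripts within 2-fold these shares were 30.1% and 79.3%. The ratio of a transcript is made from the same exons, so a larger ratio brings more agreement by construction. The gap between these groups is therefore no support for the differences. The agreement was higher for the duodenum, with 95.3% of 1603 transcripts, than for the cecum, with 87.8% of 2347. The agreement was 97.1% past 4-fold, and it fell from 96.4% for transcripts with 2 to 4 exons to 80.3% for those with 20 or more. The regions also differed in fold size, with 722 transcripts past 4-fold in the duodenum and 609 in the cecum. Its part in the gap between the regions was not tested. Exons of a transcript share a library and many are shared between transcripts, so this describes the tables and is no replicate.

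The median standard deviation of the exon log2 ratios was 0.42 in transcripts past 2-fold, 0.63 in those past 4-fold and 0.29 in those within 2-fold. The last value equals the median absolute log2 ratio over all members, 0.29. In FABP1 the 4 exons had log2 ratios from -3.03 to -2.92, and in SPINK4 they ran from 2.46 to 2.62. In SELENBP1 all 12 exons lay between 4.39 and 4.77, and in DES all 9 lay between 2.59 and 3.04. SLC16A1 was more uneven, with 5 exons from 3.20 to 4.19. For SLC15A1, 17 of 25 exons had no read listed in the cecum, and the largest exon value there was 0.514 RPKM against 12.3 to 55.2 in the duodenum.

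**Figure D5:**
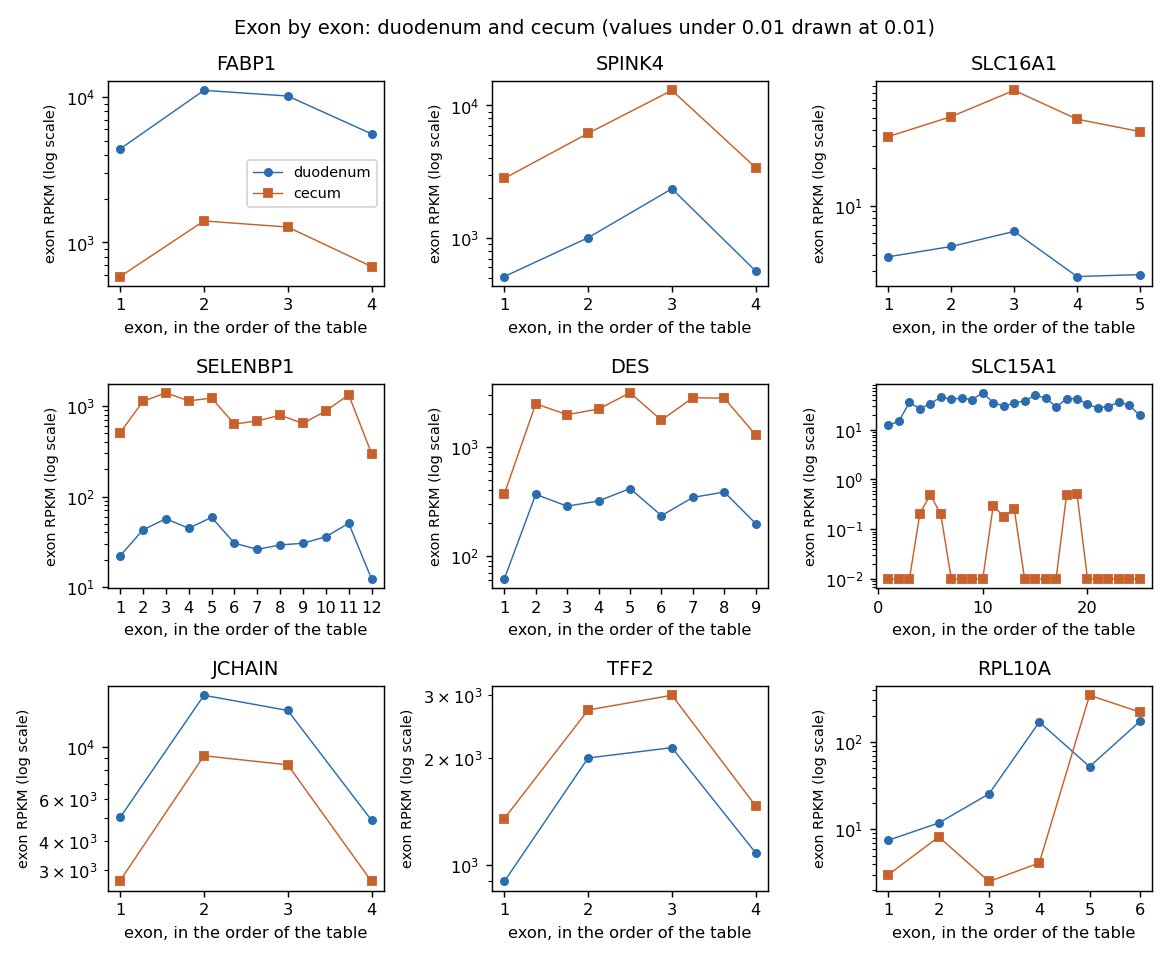
RPKM of each exon (log scale, exons in the order of the tables) in the pooled duodenum library (circles) and cecum library (squares) for 9 genes. The curves run nearly parallel in FABP1, SPINK4, SELENBP1 and DES, and they cross in RPL10A between exons 4 and 5.

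Exons that went past 2-fold in both directions within a transcript were rare. With RPKM of at least 10 and 50 reads required of an exon in its higher region, they occurred in 48 transcripts of 19 sets. The 2 genes with a symbol among them were RPL10A and FANCD2. In RPL10A, a ribosomal protein gene whose family has near-identical copies, exon 4 had 170 RPKM in the duodenum and 4.12 in the cecum. Exon 5 had 52.3 and 344. Whether reads were assigned to such copies was not tested. In FANCD2, a DNA repair gene, exon 44 had 6.86 and 23.3 RPKM and exon 4 had 21.5 and 9.41, while the whole transcript had 11.3 and 9.02.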

How the data were processed

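Pooled libraries of mucosal epithelium were sequenced on 100 bp reads. The authors deposited, for every exon with at least 1 read, an expected count of reads (mostly not whole), the RPKM made from that count and the read total of the header, and the percent of the exon covered, which was not used in a result. BWA and Bowtie 0.12.2 are named in the submitters' processing notes. The study's methods describe Bowtie2 and RSEM with sheep reference genome v4.0 for FPKM values. The deposited exon tables hold RPKM, name no build and lack chromosomes, so no coordinates are printed. Exons were summed per transcript, exons absent from a library counted as 0, and RPKM was recomputed with the header total. A value of 0 was replaced by 0.001 for log2 ratios and by 3 reads for a fold given as "at least". Sets join transcripts that list an exon with the same position and reads. Symbols came from RefSeq accessions (assembly ARS-UI_Ramb_v3.0) or from the study's supplement. The members, lists and alternatives were chosen with earlier results of these data known. Named genes were those of the study, the 10 largest differences in each direction, and, from each list, the most abundant and most different genes, of which the text gives a selection. Where 1 gene had several transcripts, the one with the most reads stands for it. The calculation of intervals and of the counting test was tested on simulated data. Python 3.11.15, numpy 2.4.6, pandas 2.3.3, scipy 1.17.1, matplotlib 3.10.9, R 4.3.3 and edgeR 4.0.16 (for TMM factors only) were used. A few listed genes are not reported here.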

Additional observations from a re-analysis of the deposited data

How the results depend on the processing

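No paired analysis was possible because each region has 1 library. For the same reason no difference has a replicate check, and pooling hides the spread between animals. The number of transcripts at least 2-fold higher was 2392 in the cecum and 1639 in the duodenum. It was 6650 and 3630 at RPKM of at least 1, 315 and 263 at RPKM of at least 100, 13738 and 9805 with no filter, 609 and 722 at 4-fold, 791 and 534 with 1 transcript per set, and 1242 and 1088 on exons listed for no other transcript. It stayed within 1.5 times under the remaining alternatives. These were median-ratio (2138 and 1802) and TMM scaling, totals without the 10 sets with the most reads, pseudocounts and the median exon. The Audic-Claverie counting test with Benjamini-Hochberg adjustment was another (2391 and 1639). The last, added after the values were seen, left out sets holding a listed muscle, matrix, vessel or nerve marker gene (2327 and 1639). It could remove only sets with such a symbol. Other transcripts of those layers stayed in, so their part was not tested. Of the alternatives run, only the 4-fold limit gave more transcripts in the duodenum.

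The percent of transcripts past 2-fold whose exons all pointed the same way, 90.8, was 82.9 at RPKM of at least 1, 93.5 at RPKM of at least 100, 92.2 with 1 transcript per set, 94.3 on exons listed for no other transcript, 89.4 with the median exon and 95.7 with exon RPKM of at least 5. The median log2 ratio, 0.02, was 0.0568 at RPKM of at least 1, 0.0012 at RPKM of at least 100 and 0.0278 with 1 transcript per set. It was below 0 with median-ratio scaling (-0.0623), TMM (-0.059), totals without the 10 sets with the most reads (-0.0231) and exons listed for no other transcript (-0.0264), so its sign depends on the scaling. Median-ratio scaling shifted every log2 ratio by -0.07.

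Of 161 named genes and transcripts past 2-fold, 28 fell short of it with a pseudocount of 1, 4 with median-ratio scaling and 4 with the median exon, and none of them changed direction there. On exons listed for no other transcript, 6 of 151 fell short and 2 changed direction. ABCG2 moved from -2.57 to 3.49, on a lone exon with 2 and 20.4 reads, and XDH moved from 2.55 to -0.45, from 3 and 16 reads.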

Other observations

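The genes below were looked up after the values were seen and belong to no list. The receptor of CCL25, CCR9, had 19.2 RPKM in the duodenum and 1.51 in the cecum, a ratio in the direction of its ligand. Among other chemokines, CXCL14 had 62.1 and 393 RPKM, CCL19 had 24.3 and 67.1, and CCL28, which draws cells that secrete IgA, had 62.4 and 68.6. Of the peroxisomal enzymes looked up, catalase (CAT) had 366 and 74.2 RPKM, HSD17B4 had 215 and 30.4, HACL1 had 136 and 22.7 and PIPOX had 11.7 and 0.284, and all usable exons of these 4 genes pointed the same way.

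Several membrane proteins of small families lay far apart. TM4SF4 had 281 RPKM in the duodenum and 4.10 in the cecum, TM4SF5 had 205 and 18.3, and TM4SF20 had 135 and 0.626, while TM4SF1 had 8.97 and 17.6. TSPAN1 had 53.5 and 1052 RPKM, and MAL, a lipid raft protein, had 2.49 and 147. HSD11B2, which protects the mineralocorticoid receptor from cortisol, had 7.06 and 112 RPKM. GNLY, a cytolytic granule protein, had 46.4 and 406 RPKM. Of the 16 genes of the T cell and NK cell list, 6 had a symbol and stayed within 2-fold. They were CD3D, CD3E, CD2, CD4, CD8B and ITGAE, so the granzyme and perforin genes of that list could not be compared.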
